A study of Mus musculus with 12 samples.

Results

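Hox genes encode homeodomain transcription factors that lie in 4 chromosomal clusters (HoxA to HoxD) and are numbered by paralog group. In the embryo the low numbers are switched on toward the head and the high numbers toward the tail, so that the genes expressed at a level of the neural tube give it a position along the body axis. Their products bind DNA together with partners of the TALE homeodomain class such as Pbx and Meis, Polycomb complexes hold the unused part of each cluster silent, and in the spinal cord they set the motor columns and pools of the cervical, brachial, thoracic and lumbar segments. Part of this pattern is kept in adult neurons and glia.

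The Hox genes were taken from the deposited gene table by symbol, as every row named Hox, a cluster letter from A to D and a paralog number. This gave 28 genes of the 39 in the mouse set, among 13957 genes with a row in all. Of these, 27 had values above the lesion, 27 had values below it and 26 had values at both sites. HOXA10 had a row above the lesion only and HOXD10 below it only. A missing row does not show that a gene was absent, since genes at high levels at 1 site also lacked a row at the other. Among the genes with no row in the table analysed here were HOXB1, HOXA11, HOXC11, HOXD11, HOXC12, HOXD12, HOXA13, HOXB13, HOXC13 and HOXD13.

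Bulk RNA-seq was performed on short segments of spinal cord taken just above and just below a contusion at thoracic level 9 (T9), 14 days after the injury, from male mice aged 4 months. All 12 libraries came from injured mice that carried the human ApoE4 allele, labelled either as homozygous for synaptojanin (written synj1+/+ in the study) or as heterozygous (synj1+/-), with 3 libraries in each of the 4 groups formed by genotype and site. No uninjured cord and no other ApoE allele is among these libraries, and the labels do not tell which segments above and below came from 1 mouse. By its label, the synj1+/- genotype is the loss of 1 copy of the gene in the whole animal, so no cell type is singled out.

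For each gene and site the table held 1 pooled value per group and no value per library. All levels are therefore the authors' group values, given as FPKM (fragments counted per transcript length and per depth of sequencing), with no SD. Differences are log2 ratios of FPKM plus 1, which understates the change of genes with low levels. These pooled values allow no test of a difference. A gene is counted as higher where its value in 1 group was at least 25% above that in the other, and as lower where it was at least 20% under it, which is a log2 difference of at least 0.322 in either direction and is a rule of size only. Counts of Hox genes are set beside the share of all genes past the same size.

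Several properties of the whole table bear on the Hox values. SYNJ1, which encodes the phosphatase whose gene was targeted, had a level of 1904 FPKM in the synj1+/+ and 2403 in the synj1+/- group above the lesion, and 1846 and 2592 below it. It was thus higher, by log2 0.34 and 0.49, in the groups labelled synj1+/-, which goes against that label, so each genotype direction given here is one between groups as labelled. Among 15 neuron markers, 14 had a row above and 12 below the lesion, and SNAP25 was at 5238 to 6928 FPKM. Only 3 of 12 forebrain and midbrain transcription factors had a row, with summed levels of 4.58 to 5.81 FPKM, and of 6 skeletal muscle genes none had a row above the lesion and 2 had one below. Because the 2 sites were normalized separately, the median log2 difference of all genes is relevant: it was -0.0008 and 0.0218 between sites in the synj1+/+ and synj1+/- groups and -0.0039 and 0.0144 between genotypes above and below. In bulk tissue, fewer cells of a type and less RNA per cell cannot be told apart.

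HOXB8 had the highest level of all Hox genes in every group. This gene, mutants of which groom excessively, was at 676 FPKM in synj1+/+ and 824 in synj1+/- above the lesion, and at 558 and 773 below it. It held 37.6% to 43.7% of the summed Hox level, which ran from 1486 FPKM in the synj1+/+ group below to 1885 in the synj1+/- group above. HOXB3, an anterior gene best known from the hindbrain, came next in each group with 150 and 214 FPKM above and 161 and 192 below. Among the others, levels did not fall off evenly with paralog number: the plot of levels by cluster shows steps of more than 10-fold between neighbouring paralogs of 1 cluster, as from HOXC4 to HOXC5 and from HOXB7 to HOXB8.

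**Figure D1:**
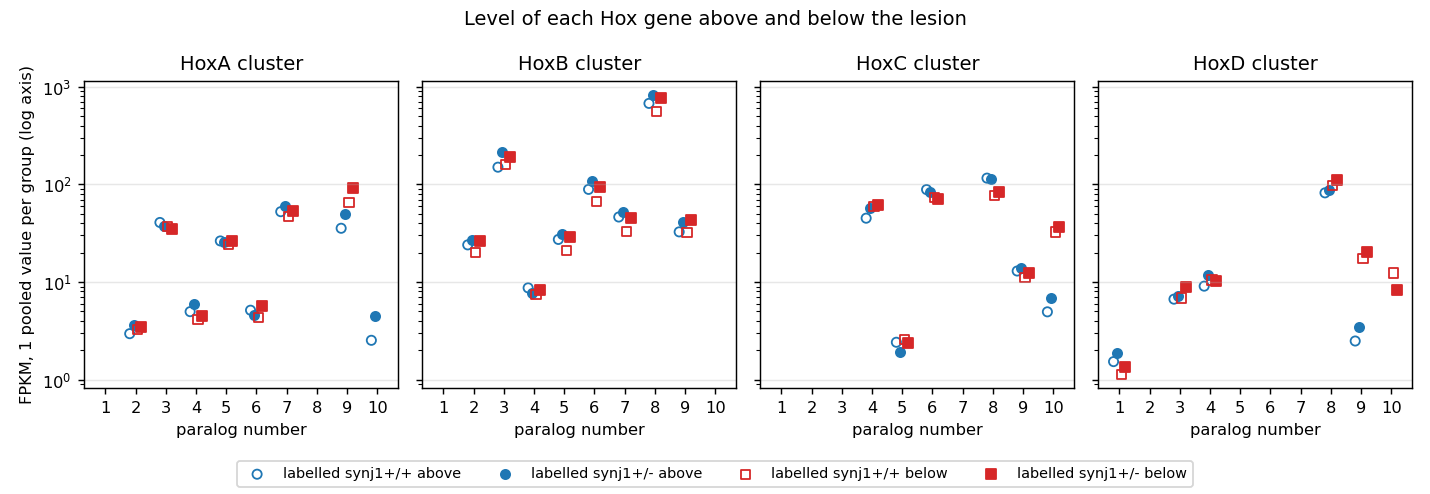
Level of each of the 28 Hox genes in FPKM (log axis) against its paralog number, with 1 panel per cluster; each symbol is 1 pooled group value, circles above and squares below the lesion, open for groups labelled synj1+/+ and filled for synj1+/-. HOXB8 is the highest gene, HOXD1 the lowest, and the squares leave the circles clearly only at HOXA9, HOXD9 and HOXC10.

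Low levels were found at several paralog numbers. HOXD1 was at 1.14 to 1.88 FPKM, HOXA2 at 2.96 to 3.62 and HOXC5 at 1.92 to 2.56. In each group between 7 and 11 of the 27 genes were under 10 FPKM. The median Hox gene lay at 24.1 to 29.2 FPKM, beside 31.8 to 33.0 for all genes with values at both sites. Levels by cluster were uneven in the same direction in all groups. HoxB genes summed to 900 to 1306 FPKM, HoxC to 256 to 277, HoxA to 171 to 220 and HoxD to 102 to 159.

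The first comparison asked how the Hox genes differed between the segment below and the segment above the lesion, which lie at different axial levels. HOXA9, HOXD9 and HOXC10, genes of the posterior paralog groups 9 and 10, were higher below than above in both genotypes, and HOXC8 was the only Hox gene lower in both. The remaining 22 did not pass the size rule in both genotypes in 1 direction.

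HOXC10, a gene of lumbar motor neuron identity, had levels of 4.95 FPKM in synj1+/+ and 6.86 in synj1+/- above the lesion, and of 32.5 and 37.0 below it. Both values below exceeded both values above. The log2 difference was 2.49 in the synj1+/+ and 2.27 in the synj1+/- groups, or 5.63-fold and 4.84-fold on FPKM plus 1. HOXD9, which acts with its paralogs in thoracic and lumbar motor neurons, was at 2.49 and 3.44 FPKM above and 17.3 and 20.2 below, with log2 differences of 2.39 and 2.25. HOXA9, another paralog of that set, was already well above the low range rostrally, with 35.6 and 49.6 FPKM above and 65.0 and 91.0 below. Its log2 differences were 0.85 and 0.86.

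Among all 12025 genes with values at both sites, ranked by the smaller of the 2 site differences, HOXC10 was number 2, HOXD9 number 3 and HOXA9 number 26. The first gene was IGF2, a growth factor of meninges and vessels, with log2 differences of 3.32 and 2.28. The next after HOXD9 was COL3A1, a fibrillar collagen of fibroblasts, with 3.73 and 2.19. The count of Hox genes higher below in both genotypes was 3 of 26, against 2.52% of all genes. At 1.5-fold it was again 3 of 26, the same genes, against 0.557% of all genes. Taken alone, the synj1+/+ groups held 3 of 26 Hox genes past 1.5-fold (3.25% of all genes) and the synj1+/- groups 3 of 26 (1.44%).

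**Figure D2:**
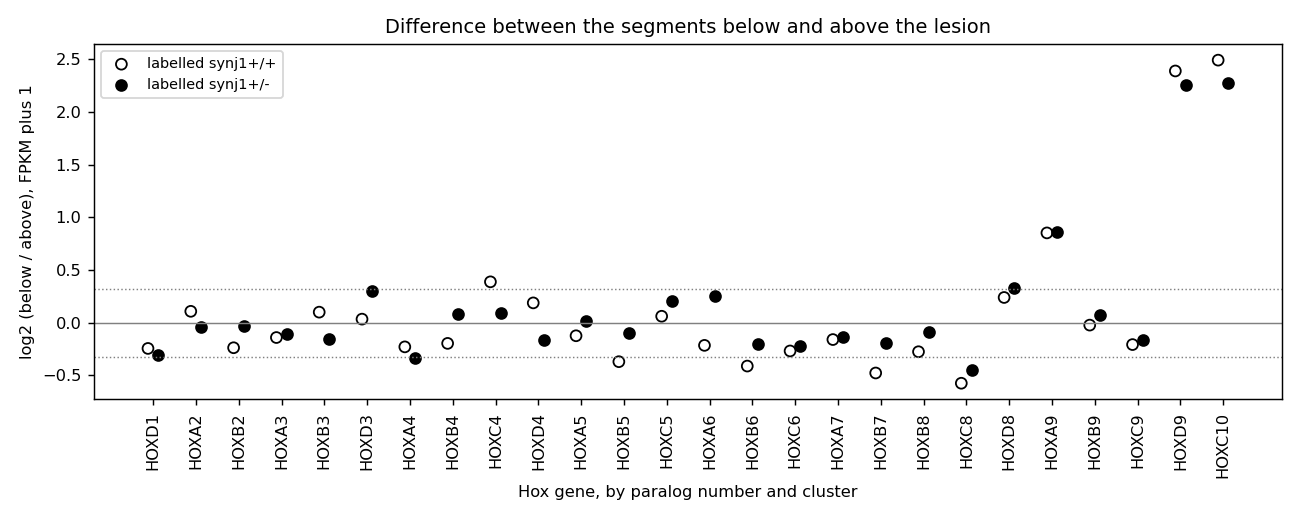
Log2 ratio of FPKM plus 1 below over above the lesion for the 26 Hox genes with values at both sites, ordered by paralog number and cluster; open circles are the groups labelled synj1+/+, filled circles synj1+/-, each from 1 pooled value per group and site, and dotted lines mark a log2 difference of 0.322 in either direction. Only HOXA9, HOXD9 and HOXC10 lie above 0.5, and HOXC8 is below the lower line in both genotypes.

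The difference did not extend to every gene of group 9. HOXB9 was at 32.6 and 41.2 FPKM above and at 32.1 and 43.5 below, with log2 differences of -0.02 and 0.08. HOXC9, which fixes thoracic motor neuron identity and represses brachial Hox genes, was at 13.0 and 14.0 FPKM above and 11.1 and 12.4 below, or -0.21 and -0.17. The 4 paralogs of group 9 thus ranged from slightly lower to about 5-fold higher below. Of the other members of group 10, HOXA10 was at 2.53 and 4.51 FPKM above with no row below, and HOXD10, a lumbar gene like HOXC10, was at 12.4 and 8.32 FPKM below with no row above, so neither has a site difference. Their missing rows give no level: RBFOX3, a neuron marker at 1485 and 1780 FPKM above, had no row below either.

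Genes of groups 1 to 8 all differed less between the sites than HOXA9, HOXD9 and HOXC10. Their 21 log2 differences ran from -0.57 (HOXC8) to 0.39 (HOXC4) in the synj1+/+ groups and from -0.45 (HOXC8) to 0.33 (HOXD8) in the synj1+/- groups. HOXC8, a gene of brachial motor pools, was at 116 and 114 FPKM above and at 77.6 and 83.0 below, and stood number 64 from the low end of all genes by the larger of its 2 differences. The count lower in both genotypes was therefore 1 of 26, against 1.46% of all genes. Values under 0 in both genotypes were found for 12 of 26 Hox genes, against 26.7% of all genes, and values above 0 in both for 7 of 26, against 32.0%.

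Values under 0 that missed the size rule in at least 1 genotype were frequent. HOXC6, which specifies brachial limb-innervating motor neurons, was at 88.6 and 83.3 FPKM above and at 73.3 and 71.3 below, with log2 differences of -0.27 and -0.22 that missed the rule in both. HOXB6 was at 89.0 and 108 above and at 66.6 and 94.3 below, with log2 differences of -0.41 and -0.20. HOXB7 had 46.4 and 52.0 above and 33.0 and 45.3 below, with -0.48 and -0.20. For HOXB6 and HOXB7, the size rule was met in the synj1+/+ groups and missed in the synj1+/- groups. HOXD8 went the other way, with 82.0 and 87.0 FPKM above and 96.9 and 110 below.

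By genotype, 4 of 26 Hox genes were higher below in the synj1+/+ groups, where 10.2% of all genes were, and 4 of 26 in the synj1+/- groups, where 6.50% were. Beside HOXA9, HOXD9 and HOXC10 these held HOXC4, a cervical gene, in synj1+/+ (0.39) and HOXD8 in synj1+/- (0.33). In synj1+/+, 4 of 26 were lower (HOXB5, HOXB6, HOXB7 and HOXC8; 7.79% of all genes), and in synj1+/-, 2 of 26 (HOXA4 and HOXC8; 4.53%). The median Hox gene differed by -0.15 and -0.07, and 10 of 26 genes (49.8% of all genes) and 11 of 26 (55.5%) lay above 0.

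**Figure D3:**
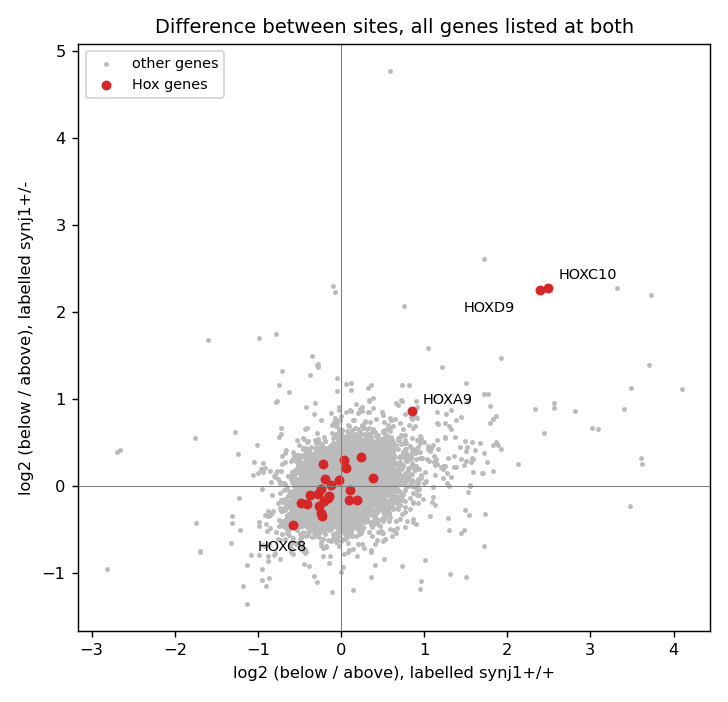
Log2 ratio below over above the lesion in the groups labelled synj1+/+ (x axis) and synj1+/- (y axis) for the 12025 genes with values at both sites (grey) and the 26 Hox genes (red), each point from 4 pooled group values. HOXC10 (2.49, 2.27) and HOXD9 (2.39, 2.25) lie far from the main cloud and close to each other, HOXA9 lies at its edge, and the other Hox genes lie within it.

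Other markers moved between the sites as well. Of the fibroblast and meningeal list, 7 of 10 genes had values at both sites, and their summed level went from 46.4 to 474 FPKM in the synj1+/+ groups (7 of 7 higher, median log2 3.49) and from 37.1 to 70.8 in the synj1+/- groups (6 of 7 higher, median 1.11). None was at 0. For microglia and macrophages, 7 of 10 genes gave medians of 0.53 and 0.03, and for neurons, 12 of 15 gave -0.08 and 0.12. Ependymal genes were lower below in 2 of 3 cases in each genotype (medians -0.99 and -0.46), and erythroid genes were higher in 5 of 5 cases in synj1+/+ (1.298) and lower in 5 of 5 in synj1+/- (-0.51). Endothelial genes were higher in 4 of 6 cases in synj1+/+ (0.44) and in 0 of 6 in synj1+/- (0.12). The part of these cells in the Hox differences was not tested.

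Set in chromosomal order, the site difference stepped up between close neighbours in 3 of the clusters. In HoxC (chromosome 15 of GRCm38), HOXC9 (chr15:102977032-102984444) and HOXC10 (chr15:102966796-102971898) are separated by 5133 bases, over which the log2 difference went up by 2.70 in synj1+/+ and 2.44 in synj1+/-. In HoxD, HOXD8 (chr2:74704615-74707933) and HOXD9 (chr2:74697763-74700208) lie 4406 bases apart, with steps of 2.15 and 1.92. In HoxA, HOXA7 (chr6:52215623-52218573) and HOXA9 (chr6:52223097-52227370) lie 4523 bases apart, with steps of 1.01 and 1.00. HOXA7 itself was at 52.6 and 59.5 FPKM above and 46.9 and 54.0 below. In HoxB (chromosome 11), the step from HOXB8 to HOXB9 over 2805 bases was 0.25 and 0.17.

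The stretches just upstream of 2 such neighbour pairs are shown because the site difference steps up between them. They are RefSeq promoters (GRCm38.p6), the 250 bases before each annotated start, read 5′ to 3′ on the gene's strand, and capitals mark the homeodomain core TAAT on either strand (ATTA where it is on the other strand). HOXA7 is from chr6:52218574-52218823 and HOXA9 from chr6:52227371-52227620, both on the minus strand, and HOXD8 is from chr2:74704365-74704614 and HOXD9 from chr2:74697513-74697762, both on the plus strand.
HOXA7: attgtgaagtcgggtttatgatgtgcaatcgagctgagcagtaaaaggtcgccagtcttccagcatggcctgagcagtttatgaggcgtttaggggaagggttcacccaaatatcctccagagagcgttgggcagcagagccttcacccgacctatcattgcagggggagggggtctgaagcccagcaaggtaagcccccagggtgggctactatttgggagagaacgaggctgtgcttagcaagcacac
HOXA9: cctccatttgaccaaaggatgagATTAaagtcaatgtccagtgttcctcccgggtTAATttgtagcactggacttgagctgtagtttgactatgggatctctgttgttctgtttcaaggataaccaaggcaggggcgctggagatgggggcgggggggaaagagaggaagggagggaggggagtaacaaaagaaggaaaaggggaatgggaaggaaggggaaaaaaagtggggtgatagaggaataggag
HOXD8: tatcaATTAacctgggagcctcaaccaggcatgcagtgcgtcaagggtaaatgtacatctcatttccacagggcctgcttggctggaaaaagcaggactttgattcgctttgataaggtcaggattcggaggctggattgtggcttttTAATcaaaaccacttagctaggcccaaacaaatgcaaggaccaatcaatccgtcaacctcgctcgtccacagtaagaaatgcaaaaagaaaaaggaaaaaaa
HOXD9: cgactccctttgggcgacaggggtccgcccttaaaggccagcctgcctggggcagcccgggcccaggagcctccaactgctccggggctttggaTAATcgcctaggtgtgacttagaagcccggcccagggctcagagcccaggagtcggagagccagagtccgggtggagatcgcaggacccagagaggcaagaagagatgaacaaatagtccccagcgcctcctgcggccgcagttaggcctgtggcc
There were 0, 2, 2 and 1 matches, so the pair partner with the site difference held more in HoxA and fewer in HoxD. GC content was 54.8% and 49.6% for HOXA7 and HOXA9, and 44.4% and 65.2% for HOXD8 and HOXD9.

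A promoter entry existed for 16 of the 28 Hox genes (17 entries); HOXC9, HOXC10 and 10 others have none. In the 250 bases before the annotated start (both strands), TAAT was present in 13 of 17 Hox entries and in 54.9% of all 32851 promoters. The caudal-type and posterior Hox motif TTTATNG was found in 2 of 17 (9.81% of all), the Pbx-Hox motif TGATTNAT in 1 of 17 (2.82%) and the Meis motif TGACAG in 2 of 17 (15.9%). TGATTNAT holds TAAT where its N is an A, and the other motifs do not hold it. None of these last 3 was in the 4 stretches shown, which says only that these letters are not in these windows.

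The second comparison asked how Hox levels differed between the groups labelled synj1+/- and synj1+/+ at the same site. Above the lesion, 8 of 27 Hox genes were higher in the synj1+/- group, where 4.18% of all genes were, and 0 of 27 were lower, where 7.44% of all genes were. Below it, 9 of 27 were higher (8.07% of all genes) and 1 of 27 was lower (11.5%). The median Hox difference was log2 0.19 above and 0.18 below, beside -0.0039 and 0.0144 for all genes. Values above 0 were found for 20 of 27 genes above (49.0% of all genes) and 22 of 27 below (52.8%). Nearly all these differences were small: at 1.5-fold, 1 of 27 remained above, HOXA10 (0.791% of all genes), and 0 of 27 below (1.16%).

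Above the lesion, the higher genes were HOXB3, HOXC4, HOXD4, HOXA9, HOXB9, HOXD9, HOXA10 and HOXC10, so that 5 of the 6 genes of groups 9 and 10 with a row were among them and 3 of the 21 genes of groups 1 to 8. HOXA10, a gene of lumbar identity, went from 2.53 to 4.51 FPKM (log2 0.64), the largest difference, at a low level. HOXB3 went from 150 to 214 FPKM (0.51) and HOXA9 from 35.6 to 49.6 (0.47). HOXC10 differed by 0.40, HOXD9 by 0.35 and HOXC4 by 0.33, the last with levels of 45.1 and 56.8 FPKM. HOXC4, HOXB9 and HOXD4 (0.33, 0.33 and 0.34) lay just past the limit of 0.322. HOXC10 (4.95 and 6.86 FPKM) and HOXD9 (2.49 and 3.44) were at low levels like HOXA10. Of the higher genes, only HOXB3 (0.49) and HOXA9 (0.39) stayed past the limit with FPKM plus 10. The lowest value was that of HOXC5, a gene of the phrenic motor column, at -0.22.

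Below the lesion, the higher genes were HOXB2, HOXD3, HOXB5, HOXA6, HOXB6, HOXB7, HOXB8, HOXA9 and HOXB9. Of these, 6 are HoxB genes. HOXB6 went from 66.6 to 94.3 FPKM (log2 0.49), HOXB8 from 558 to 773 (0.47) and HOXB5 from 20.9 to 29.2 (0.46). HOXB7 went from 33.0 to 45.3 (0.45) and HOXB9 from 32.1 to 43.5 (0.43). HOXA6 (4.29 and 5.63 FPKM, 0.33) and HOXD3 (6.86 and 8.98 FPKM, 0.34) lay just past the limit at low levels. With FPKM plus 10, HOXB2 (0.26), HOXD3 (0.17) and HOXA6 (0.13) missed the limit and the other 6 stayed past it. The 8 HoxB genes all lay above 0, with a median of 0.44, while above the lesion 7 of 8 did, with a median of 0.24 and 2 of 8 past the limit. The synj1+/+ group below enters both this comparison and the site difference in synj1+/+, in which the HoxB median was -0.26.

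**Figure D4:**
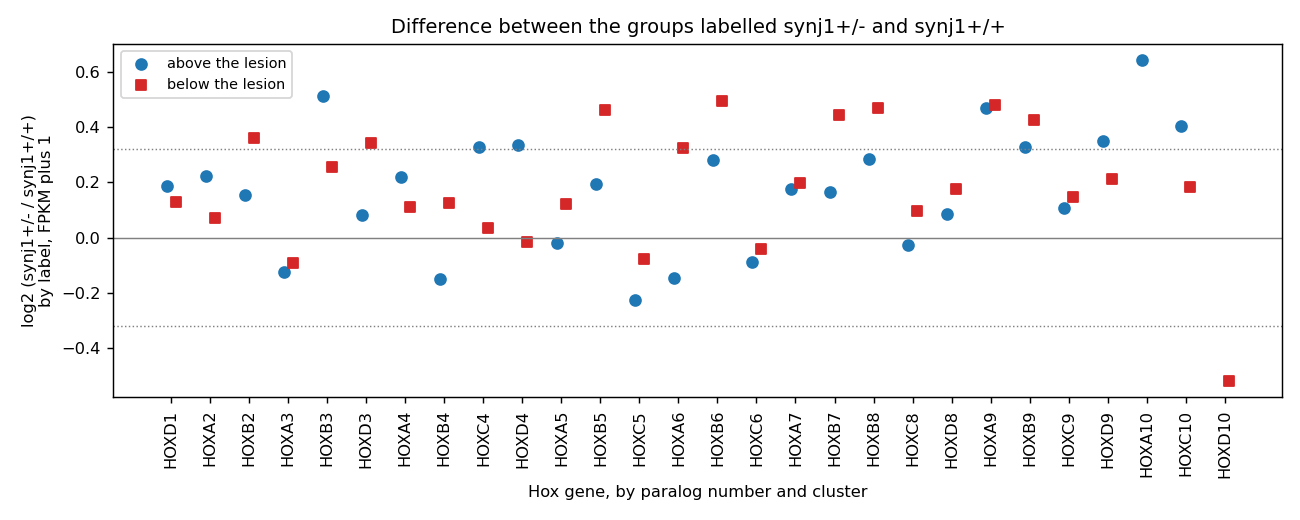
Log2 ratio of FPKM plus 1 between the groups labelled synj1+/- and synj1+/+ for each Hox gene, above (blue circles) and below (red squares) the lesion, in order of paralog number and cluster; each point comes from 2 pooled group values and dotted lines mark a log2 difference of 0.322 in either direction. Most points lie above 0, the highest is HOXA10 above (0.64) and the lowest HOXD10 below (-0.52).

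HOXD10 was the only Hox gene lower in the synj1+/- group by the size rule. Its level below the lesion was 12.4 FPKM in synj1+/+ and 8.32 in synj1+/-, a log2 difference of -0.52, while HOXC10 at the same site was at 32.5 and 37.0 (0.18). The gene model of HOXD10 overlaps that of HOXD11, so fragments could be assigned to either.

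The HoxC genes had medians of 0.04 above and 0.07 below, over values that went both ways: above the lesion HOXC4 and HOXC10 passed the size rule, and HOXC5 had the lowest value of all Hox genes. HOXC8 differed by -0.03 and 0.10 and HOXC6 by -0.09 and -0.04. HOXA3 was slightly lower at both sites, with 40.8 and 37.3 FPKM above and 36.9 and 34.6 below. Genes higher at both sites by the size rule were HOXA9 and HOXB9, 2 of 26 against 1.01% of all genes, and those above 0 at both were 18 of 26, against 31.3%. HOXA9 had nearly the same difference at both sites, 0.47 and 0.48. Subtracting the value above from the value below gave -0.35 (HOXD4) to 0.47 (HOXA6), with 18 of 26 larger below, beside 53.9% of all genes.

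Neuron markers moved the same way below the lesion. Of 12 listed there, 12 lay above 0 and 6 were higher by the size rule, with a median log2 difference of 0.30 and a summed level that went from 9442 to 11853 FPKM. SYT1 had the largest difference, 0.54, and the inhibitory genes SLC32A1 and GAD1 differed by 0.45 and 0.41. Above the lesion, 10 of 14 lay above 0, none was past the limit in either direction, the median was 0.08 and the sum went from 11519 to 12876. Taken relative to the neuron median, a scaling chosen after seeing the data, 0 of 27 Hox genes were higher and 4 lower below the lesion, with 9 of 27 above 0 and a median of -0.12. Above the lesion 4 of 27 were higher and the median was 0.11. Motor neuron markers had medians of 0.02 above and 0.18 below.

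Markers of other cells differed between the genotype groups in both directions. Fibroblast and meningeal genes were lower in the synj1+/- group in 6 of 9 cases above (median -0.49) and in 8 of 8 below (median -2.86), where the sum went from 481 to 72.7 FPKM. Microglia and macrophage genes were lower in 6 of 10 cases above and in 5 of 7 below, with medians of -0.42 and -0.64. Astrocyte genes had medians of -0.21 and -0.18. Erythroid genes were higher in 5 of 5 cases above (median 2.17) and in 3 of 5 below (0.37). Ependymal genes were higher in 1 of 4 cases above (median -0.06) and in 2 of 3 below (0.49), and endothelial genes in 1 of 6 above (0.14) and 0 of 6 below, where 1 was lower (-0.14). None of the listed markers of these lists was at 0, and their part in the Hox values was not tested.

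**Figure D5:**
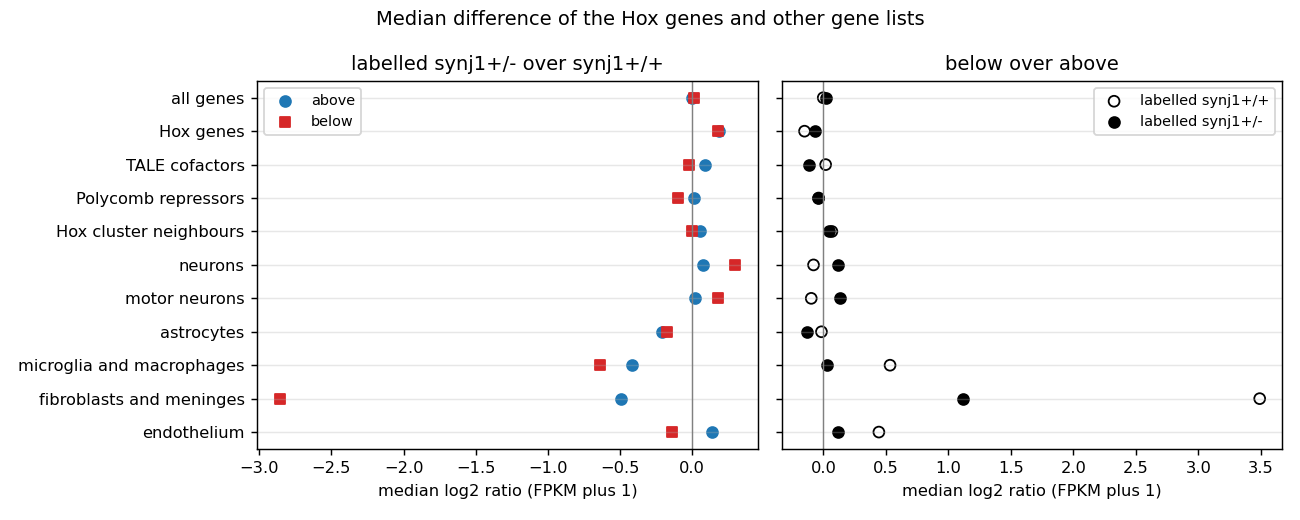
Median log2 ratio of FPKM plus 1 of all genes, the Hox genes and other gene lists; the left panel gives the groups labelled synj1+/- over synj1+/+ (blue circles above, red squares below the lesion), and the right panel gives below over above (open circles synj1+/+, filled circles synj1+/-). The Hox median is near 0.2 by genotype at both sites, neurons reach 0.30 below, and the fibroblast list spans the widest range, from -2.86 to 3.49.

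Genes that act with or on the Hox clusters were counted in the same way. Of the TALE cofactors, none was past the limit in either direction above the lesion (12 with a row), and below it 0 of 11 were higher and 3 lower: TGIF2 (log2 -0.49) and TGIF1 (-0.42), which are repressors, and the Pbx-binding protein PBXIP1. MEIS3, a Hox partner of hindbrain and cord, had values of 0.31 above and 0.21 below. Between sites none of the 11 was past the limit in either genotype. All 11 thus differed less between the sites than HOXA9, HOXD9 or HOXC10.

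Polycomb repressor genes showed few differences. Above the lesion 1 of 28 was higher (PCGF2, 0.42) and 0 lower, and below it 1 of 23 was higher (JARID2, 0.33) and 2 lower, PHF19 (-0.61) and CBX2 (-0.35). Between sites in synj1+/+, 2 of 22 were higher and 2 lower, with EZH2, the H3K27 methyltransferase, at 0.63 and JARID2 at -0.58. In synj1+/- 0 of 22 were higher and 1 lower, PCGF2 at -0.32. Genes of the trithorax group and the H3K27 demethylases gave 0 higher and 1 lower of 12 above (KMT2A, -0.35) and none of 10 past the limit below.

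The retinoic acid pathway, which induces 3' Hox genes in the embryo, differed mainly by genotype below the lesion. Of 15 genes, 6 were lower in the synj1+/- group and 2 higher, with a median of -0.19. STRA6, a retinol importer, was at -0.97. CRABP1, a retinoic acid binding protein, was higher at 0.73. Above the lesion 1 of 13 was higher, CRABP1 at 0.51, and 0 lower. A further list of 7 genes held the caudal homeobox (CDX) and EVX genes together with GDF11 and GBX2. Of these, only GDF11 and GBX2 had a row, and neither passed the limit in any comparison. The CDX and EVX genes of the list had no row, so no caudal homeobox or Evx gene has a value here.

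Genes flanking the 4 clusters on the chromosomes moved little. By genotype 0 of 21 were higher and 1 lower above, SKAP2 beside HoxA at -0.33, and none of 20 passed the limit in either direction below. Between sites 1 of 20 was higher in synj1+/+ (ATP5G1, 0.34) and none in synj1+/-. Of the noncoding RNAs of the clusters, 4 of 19 had a row above. HOXAAS2 and HOXAAS3, antisense to HoxA genes, were higher below by genotype at 0.41 and 0.39, and HOXB5OS above at 0.72, at levels of 0.388 and 1.28 FPKM. The library kit does not mark strand, and 10 of the 28 Hox genes have a gene model on the opposite strand, while 9 overlap another Hox gene model, so fragments of these genes and their neighbours could be mixed. HOXC10, HOXD9 and HOXA9 are in neither set.

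The list of motor column genes, some of which were also on the motor neuron marker list, showed no shared direction. By genotype 1 of 12 was higher and 1 lower above (ISL1 0.39, ISL2 -0.41), and 3 of 11 were higher and 1 lower below, with LHX1 at 0.43 and ETV4, a motor pool factor, at 0.40. Between sites 0 of 10 were higher and 2 lower in synj1+/+ (LHX1 -0.43, NOS1 -0.41), and 2 of 10 were higher and 0 lower in synj1+/- (ISL2 0.61, ETV4 0.41). Levels of some of these genes were low: ISL1 was at 0.88 and 1.46 FPKM above, and over the 4 groups ISL2 was at 1.88 to 3.39 and LHX1 at 1.41 to 2.26. FOXP1, the limb-level cofactor of Hox proteins in motor neurons, was at 205 to 243 FPKM in all 4 groups.

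The genes whose 3 independent log2 differences (genotype at each site, and site in synj1+/+) lay nearest to those of HOXC9, by Euclidean distance over 12025 genes, were 5 genes at distances of 0.02 to 0.03, among them DPF3, WDR73 and RAB11FIP2. HOXC10 was added to this search after its values had been seen. Its nearest gene was HOXD9, at 0.12, and the next was S100A9, a neutrophil protein, at 0.88. The likeness rests on 4 pooled values per gene.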

How the data were processed

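RNA-seq libraries came from 12 spinal cord segments, 3 in each of 4 groups by genotype and site, grouped by the labels. According to the study's methods and the submitters' processing notes, RNA was prepared with the TruSeq RNA Sample Prep Kit v2, all libraries of a site were reduced to an equal number of reads, and reads were aligned with STAR 2.5.4b to GRCm38.p6 and quantified with Cuffdiff 1.3.0 under upper quartile normalization. The deposited values are FPKM pooled over the libraries of a group, 1 value per group, gene and site. Adding of 1 was inferred, since the lowest value is exactly 1.0 (19 values) and none is lower, and 1 was subtracted to print FPKM. Because the values are pooled, no error between libraries could be given. The deposited tables also hold the authors' fold changes and p-values, of all genes and of genes under a p-value limit. These were not used.

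From there, log2 ratios of the deposited values were computed for 13645 genes above, 12337 below and 12025 at both sites, in Python 3.11.15 with pandas 2.3.3 and numpy 2.4.6, and drawn with matplotlib 3.10.9. For 3 symbols with several rows, none a Hox gene, the row with the highest mean was used. The counting was checked on simulated data. No test was run. All Hox genes could be named, those in the upper part by mean level or at least 1.5-fold different with all their values, and from each other list up to 2 of the genes past the size rule with the largest differences, with some others named after their values were seen and some left out as not reported here. The members and the lists were chosen with earlier results of these data known. Positions and promoters are from RefSeq (GRCm38.p6), and strands and gene models on the opposite strand are from GENCODE M21 (GRCm38). The TAAT motif was added after the other 3 gave no match in the stretches printed. Alternatives covered the size rule, the added constant, a filter on low values, the scaling and repeated rows.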

Additional observations from a re-analysis of the deposited data

How the results depend on the processing

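No paired analysis was possible because the table pools the 3 libraries of a group and no replicate number is shared between groups, and for the same reason no library could be left out. Counts of Hox genes moved with the size rule. At 1.1-fold, higher by genotype were 17 above (8 by the size rule of the report) and 15 below (9), lower were 3 above (0), and between sites 14 were lower in synj1+/+ (4), 9 lower in synj1+/- (2) and 7 higher in synj1+/- (4). At 1.5-fold, 1 was higher above, 0 were higher and 0 lower below, and 0 were lower between sites in either genotype. With FPKM plus 10, 2 were higher above, 0 lower below, and 1 lower between sites in synj1+/-. Relative to the neuron marker median, chosen after seeing the data, 4 were higher above, 0 higher and 4 lower below, and 4 lower between sites in synj1+/-. These counts move by construction with the limit, the constant or the centre. Adding 0.1, dropping genes with a mean deposited value under 2, centring on all genes or scaling to equal sums moved no count by over 1.5 times. The count of Hox genes higher below than above in synj1+/+ (4) moved by over 1.5 times under none of these settings. Among the differences of single Hox genes, 3 crossed the limit with FPKM plus 0.1, 13 with FPKM plus 10, 3 after centring on all genes, 3 with equal sums and 20 relative to the neuron median, and no difference past the limit changed sign under these settings.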
